A study of Homo sapiens with 4 samples.

Results

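Heat shock chaperones keep other proteins folded. HSP70 proteins bind exposed hydrophobic stretches in cycles of ATP use, HSP40 (J-domain) proteins bring them clients, nucleotide exchange factors release the clients, and HSP90 with its co-chaperones finishes the folding of kinases, steroid receptors and other signalling proteins. TRiC, a ring-shaped chaperonin of the cytosol, folds actin and tubulin, and a parallel set of chaperones works inside mitochondria. Heat shock factor HSF1 raises many of these genes when proteins unfold, by binding heat shock elements in their promoters.

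The genes described here are 49 listed chaperone, co-chaperone and heat shock factor genes, out of 64252 gene rows in the count table. They were chosen by symbol: each listed symbol was matched to 1 Ensembl identifier, and all 49 were found. The list was drawn up with earlier results of these data known. HSPB11 is listed under its current symbol IFT25 in the table of names and was matched through its GENCODE name. The study used SK-N-BE(2), an established human neuroblastoma line with amplified MYCN. RNA sequencing was done on cells transfected with a short hairpin RNA against IRF2BP2 (sh-IRF2BP2, 2 libraries) or with a scramble hairpin (sh-Scb, 2 libraries). All libraries come from this line, and the sources used here do not give the hairpin sequence, the number of hairpins or the time after transfection. The labels do not state whether replicates were grown as separate cultures. The p-values therefore reflect the spread between these particular libraries, and that spread may be technical.

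Total counts were 31871800 and 32082642 in the sh-IRF2BP2 libraries and 34684651 and 30847699 in the sh-Scb libraries. IRF2BP2, the targeted gene, had 89.6 and 87.5 CPM (counts scaled to the total of the library) in the sh-IRF2BP2 libraries and 243 and 238 CPM in the sh-Scb libraries (log2 fold change -1.44, standard error 0.04, edgeR adjusted p = 5.87e-10). The neuroblastoma markers MYCN, HAND2, GATA3, ISL1, TH and CHGA were detected in every library. MYCN rose to 7067 and 7167 CPM in the sh-IRF2BP2 libraries, against 5355 and 5511 CPM in the sh-Scb libraries, while HAND2, ISL1, TH and CHGA fell and GATA3 was not called. Summed over 6 immune markers the level was 4.56 and 4.18 CPM in the sh-IRF2BP2 libraries and 4.92 and 7.74 CPM in the sh-Scb libraries, with CD3E and LYZ at 0. Over 6 fibroblast markers it was 270 and 271 CPM in the sh-IRF2BP2 libraries and 319 and 303 CPM in the sh-Scb libraries, with COL1A2 at 0 in the sh-IRF2BP2 libraries. Its members moved both ways, with COL1A1 and COL3A1 higher and LUM, DCN and PDGFRB lower. The part of these markers in the chaperone values was not tested. Fewer cells of a type and less RNA per cell cannot be told apart in bulk libraries.

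Most of the chaperone genes changed, and most of those that changed were higher with sh-IRF2BP2. Of the 49 genes, 25 rose, 6 fell and 18 did not pass the test (edgeR quasi-likelihood test, adjusted p under 0.05 over all 19093 genes tested). Over all genes tested, 42.0% were called, 20.6% as higher and 21.4% as lower, against 51.0% higher and 12.2% lower among the chaperone genes. The median log2 fold change was 0.16 over the chaperone genes and -0.01 over all genes tested. All 49 passed the filter on low counts, although CRYAB passed it only through the sh-IRF2BP2 libraries. The background of all 19093 genes also holds genes of low count. A stricter filter, at mean CPM of 10, kept 10383 genes, of which 2973 were called higher and 3161 lower. Most genes under this stricter filter, which left out HSPA12A, HSPB8 and CRYAB, were thus called, as were most chaperone genes kept (22 higher and 8 lower). There the chaperone genes differed from the background mainly in direction, less in how many were called. The changes were mostly small. Of the 25 rises 9, CRYAB and HSPB8 among them, and of the 6 falls 1 reached a log2 fold change of 0.5 in size. Over all genes tested, 1529 of the 3930 rises and 2465 of the 4086 falls did. These are 8.01% and 12.9% of all genes tested. In 30 genes both sh-IRF2BP2 libraries lay above both sh-Scb libraries and in 14 below, where the shares over all genes tested were 34.4% and 36.0%.

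**Figure D1:**
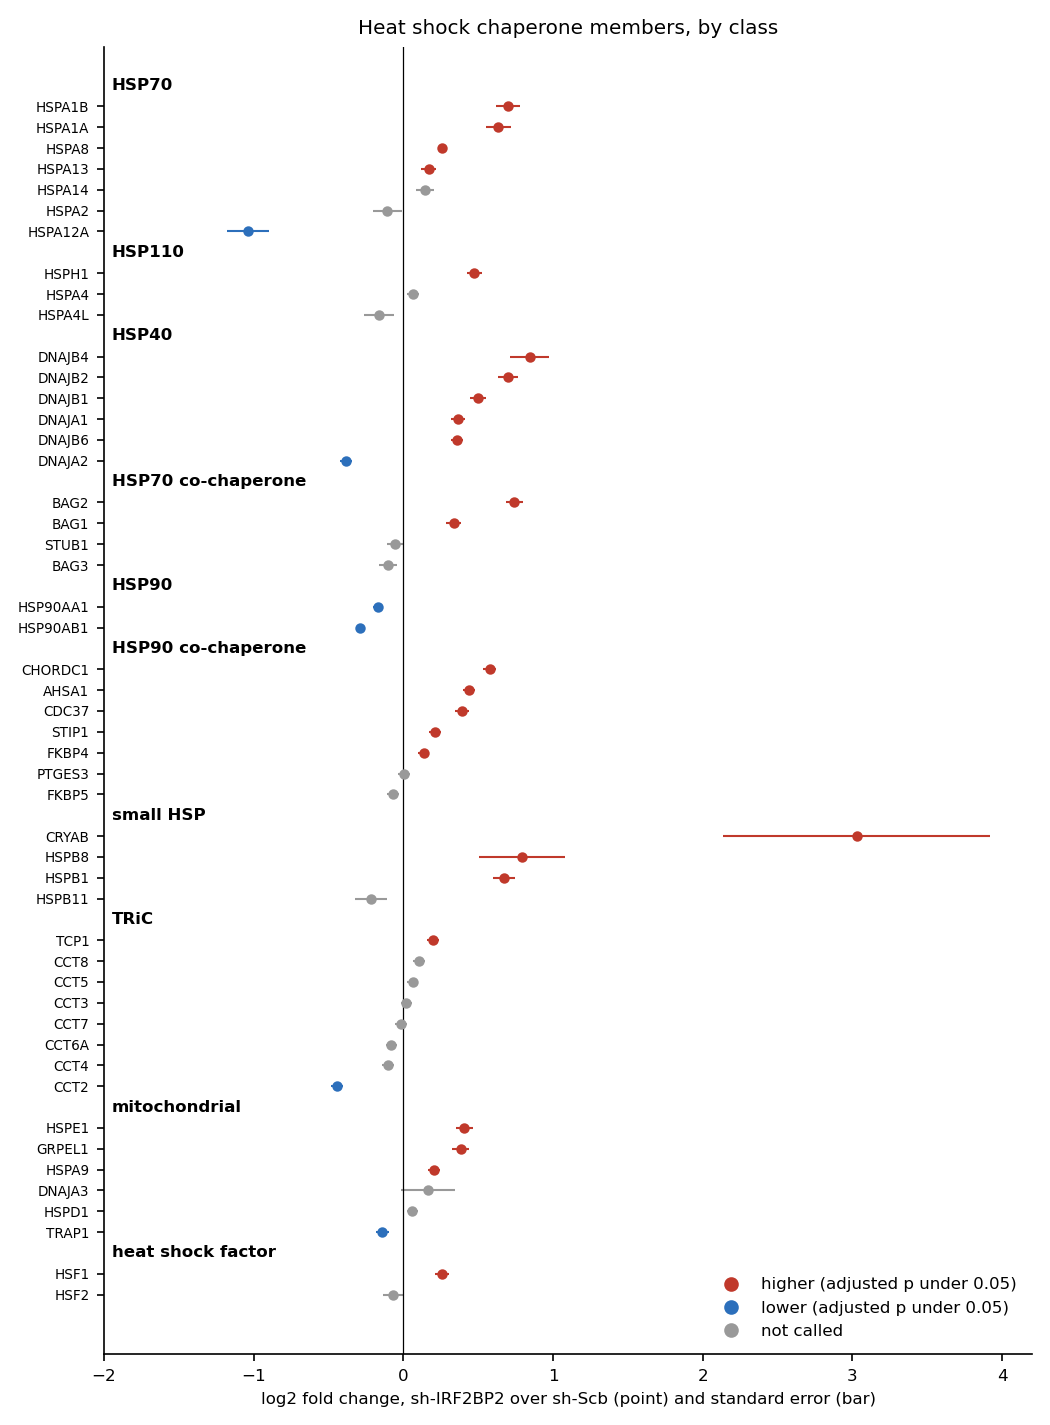
Log2 fold change of sh-IRF2BP2 over sh-Scb (horizontal axis, points, with standard errors as bars) for the 49 chaperone genes by class, coloured by the edgeR call. Red points (25 genes) rose, blue points (6 genes) fell and grey points (18 genes) did not pass the test; CRYAB, at 3.03, has the widest bar and the fewest counts.

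**Figure D2:**
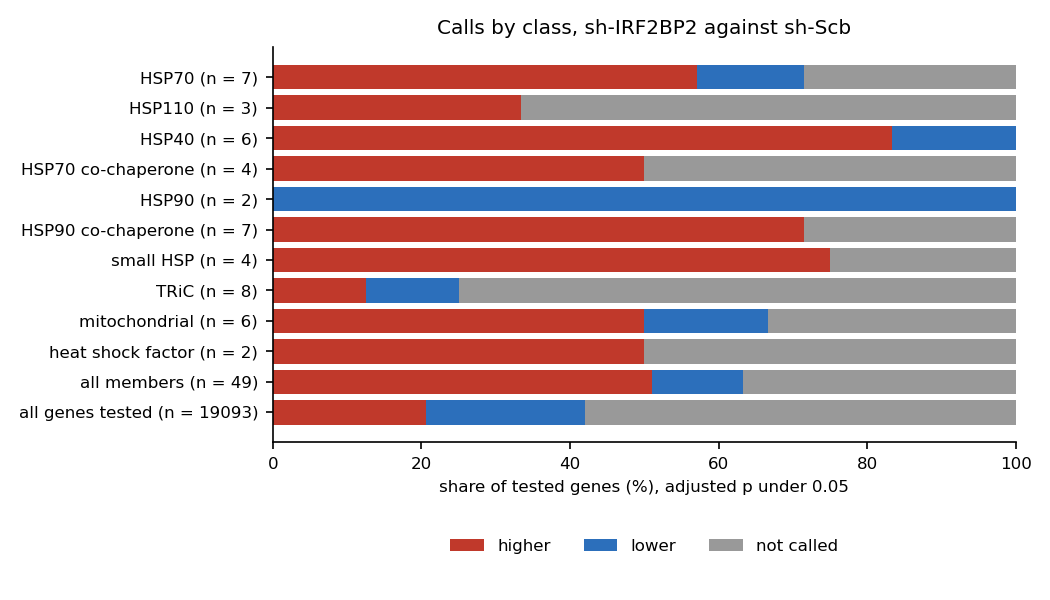
Share of tested genes called higher, lower or neither (horizontal axis, percent) in each chaperone class, in all 49 chaperone genes and in all 19093 genes tested. Red reaches 51.0% over the chaperone genes and 20.6% over all genes tested, and the HSP90 row is blue throughout.

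Calls by class were as follows, where 20.6% of all genes tested were higher and 21.4% lower. The classes are small. HSP40 genes (5 higher and 1 lower of 6), HSP90 co-chaperones (5 higher and 0 lower of 7) and HSP70 genes (4 higher and 1 lower of 7) held most of the rises. Small heat shock proteins had 3 higher and 0 lower of 4. Their rises include CRYAB, which passed the filter only through the sh-IRF2BP2 libraries, and HSPB8, whose call did not hold in every alternative. Both cytosolic HSP90 genes fell. TRiC stood nearest to no change by its median log2 fold change (0.00), with 1 subunit gene higher, 1 lower (12.5% each) and 6 not called. Together the 49 genes held 15293 and 15203 CPM in the sh-IRF2BP2 libraries and 14940 and 14740 CPM in the sh-Scb libraries. The summed level was thus slightly higher in both sh-IRF2BP2 libraries, with the losses of the abundant HSP90 genes set against gains elsewhere. A difference this small depends on the scaling, and the sum was not computed with other scalings. Upper quartile scaling shifted log2 fold changes by a median of -0.049.

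Of the heat shock factors, HSF1, the main activator of the heat shock response, was slightly higher. Its level was 109 and 113 CPM in the sh-IRF2BP2 libraries and 88.8 and 96.2 CPM in the sh-Scb libraries (log2 fold change 0.26, standard error 0.05, edgeR adjusted p = 0.00109). The groups did not overlap. HSF1 shares 139 exonic bases with DGAT1 on the opposite strand, whose log2 fold change was -0.17 (edgeR adjusted p = 0.0874). HSF2, which binds the same elements and is regulated during development, had 38.5 and 40.2 CPM in the sh-IRF2BP2 libraries and 41.8 and 40.9 CPM in the sh-Scb libraries and was not called (log2 fold change -0.07, edgeR adjusted p = 0.457). Among related genes outside the list, HSF4 fell by 0.32 on the log2 scale (edgeR adjusted p = 0.00873) and HSBP1, whose product binds HSF1 and dampens it, rose by 0.21 (edgeR adjusted p = 0.00217).

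Promoter sequences show which of the genes carry the letters of a heat shock element close to an annotated start. RefSeq windows (GRCh38.p14, 250 bases before to 50 bases after a start) were found for 41 of the 49 genes. CCT6A, CRYAB, FKBP4, GRPEL1, HSF1, HSPA14, HSPB11 and STUB1 had no entry. The motif searched, on both strands, was 3 alternating units of the element, GAA, TTC and GAA, with 2 bases of any kind between units, and any window of a gene counted. It was present in 7 of the 41 genes (17.1%) and in 166 of all 27305 genes with a window (0.608%). Matches of the 7 genes are shown with their surroundings because these genes moved both ways. Each is written 5′ to 3′ on the gene's own strand, in lower case with the motif in capitals and 10 bases on each side.
HSPA8, chr11:123062169-123062201, minus strand: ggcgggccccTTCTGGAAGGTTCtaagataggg
HSPA8, chr11:123062344-123062376, minus strand: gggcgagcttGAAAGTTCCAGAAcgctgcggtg
DNAJA1, chr9:33025266-33025298, plus strand: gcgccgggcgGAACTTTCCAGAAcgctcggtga
DNAJB6, chr7:157336863-157336895, plus strand: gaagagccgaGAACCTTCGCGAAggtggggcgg
CHORDC1, chr11:90223082-90223114, minus strand: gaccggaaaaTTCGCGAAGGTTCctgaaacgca
HSP90AA1, chr14:102087110-102087142, minus strand: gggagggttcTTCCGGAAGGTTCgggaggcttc
HSP90AB1, chr6:44247768-44247800, plus strand: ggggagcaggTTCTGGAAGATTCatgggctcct
HSP90AB1, chr6:44247821-44247853, plus strand: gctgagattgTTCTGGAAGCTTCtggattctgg
HSPD1, chr2:197500058-197500090, minus strand: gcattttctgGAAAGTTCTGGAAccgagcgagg
CHORDC1 holds 3 overlapping matches, of which the middle is shown, and HSPD1 holds 2 that overlap, in the second of its windows. Both HSP90AB1 matches lie in its window at chr6:44247693-44247992, and its other windows hold none. The HSP90AA1 match lies in its window at chr14:102086995-102087294, and its other window holds none. Of these 7 genes, HSPA8, DNAJA1, DNAJB6 and CHORDC1 rose, HSP90AA1 and HSP90AB1 fell, and HSPD1 was not called. The HSPD1 match also lies inside the annotated span of HSPE1, which rose, but outside the RefSeq window of HSPE1. Over all genes with the motif, 59 were tested, of which 15 were higher (25.4%) and 12 lower (20.3%). Over all 12018 tested genes with a window, 25.1% were higher and 23.8% lower. Some heat-inducible genes, HSPA1A, HSPH1, DNAJB1 and HSPB1 among them, do not hold these exact letters in these windows.

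The heat-inducible HSP70 genes HSPA1A and HSPA1B rose together. HSPA1A (ENSG00000204389, chr6:31815464-31817946, plus strand) had 31.2 and 31.1 CPM in the sh-IRF2BP2 libraries and 19.3 and 20.8 CPM in the sh-Scb libraries (log2 fold change 0.63, standard error 0.08, edgeR adjusted p = 8.33e-05). HSPA1B (ENSG00000204388, chr6:31827735-31830255, plus strand) had 37.4 and 38.6 CPM in the sh-IRF2BP2 libraries and 22.2 and 24.6 CPM in the sh-Scb libraries (log2 fold change 0.70, edgeR adjusted p = 3.49e-05). Both sh-IRF2BP2 libraries lay above both sh-Scb libraries for each gene. The genes are near-identical neighbours, and even their promoter windows share 277 of 301 aligned positions (92.0%), so how reads were divided between them is uncertain. Summed as a single gene they gave 68.6 and 69.7 CPM in the sh-IRF2BP2 libraries and 41.5 and 45.4 CPM in the sh-Scb libraries (log2 fold change 0.67, edgeR adjusted p = 7.06e-06). HSPA6, a strictly heat-inducible HSP70 gene, had at most 0.156 CPM in any library and was not tested.

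HSPA8, the constitutive cytosolic HSP70, was by far the most abundant HSP70 transcript and was also higher. It had 2049 and 2060 CPM in the sh-IRF2BP2 libraries and 1743 and 1688 CPM in the sh-Scb libraries (log2 fold change 0.26, standard error 0.03, edgeR adjusted p = 4.70e-05). Per length, its mean level was 1411 TPM (a level scaled to gene length and depth) with sh-IRF2BP2 and 1148 TPM with sh-Scb, while HSPA1B averaged 50.2 TPM with sh-IRF2BP2 and 30.1 TPM with sh-Scb. HSPA12A, a distant member of the family expressed in brain, was 2.06-fold lower, with 6.03 and 5.74 CPM in the sh-IRF2BP2 libraries and 11.9 and 12.3 CPM in the sh-Scb libraries (log2 fold change -1.04, edgeR adjusted p = 1.10e-04). It was the largest fall among the 49 genes. HSPA13, a microsomal relative, rose by 0.17 on the log2 scale (edgeR adjusted p = 0.0185). Its log2 fold change was 0.10 without sh-Scb replicate 2 and 0.25 without sh-Scb replicate 1. HSPA13 no longer passed without sh-Scb replicate 2 (0.123), sh-IRF2BP2 replicate 1 (0.0722) or sh-IRF2BP2 replicate 2 (0.0718) or with upper quartile scaling (0.0767), as edgeR adjusted p. HSPA14, which works at the ribosome (0.15), and HSPA2, known for its role in sperm (-0.11), were not called.

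Of the HSP110 genes, whose products act as nucleotide exchange factors of HSP70, HSPH1 rose and the other two did not pass the test. HSPH1 had 184 and 166 CPM in the sh-IRF2BP2 libraries and 128 and 124 CPM in the sh-Scb libraries (log2 fold change 0.47, standard error 0.05, edgeR adjusted p = 2.13e-05). HSPA4 averaged 229 ± 4.32 CPM with sh-IRF2BP2 and 219 ± 3.44 CPM with sh-Scb (SD, n = 2; edgeR adjusted p = 0.227). HSPA4L averaged 16.1 ± 0.302 CPM with sh-IRF2BP2 and 18.0 ± 0.646 CPM with sh-Scb (edgeR adjusted p = 0.212).

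HSP40 genes were higher except for DNAJA2. DNAJB4 had 14.0 and 15.2 CPM in the sh-IRF2BP2 libraries and 8.75 and 7.55 CPM in the sh-Scb libraries (log2 fold change 0.84, standard error 0.13, edgeR adjusted p = 3.40e-04). DNAJB2, which is enriched in neurons and passes clients to the proteasome, had 50.4 and 50.2 CPM in the sh-IRF2BP2 libraries and 31.3 and 30.7 CPM in the sh-Scb libraries (log2 fold change 0.70, edgeR adjusted p = 8.88e-06). Neither gene's groups overlapped. DNAJB1, the classic heat-inducible HSP40, rose 1.41-fold, to 82.2 and 80.1 CPM in the sh-IRF2BP2 libraries, against 58.5 and 56.4 CPM in the sh-Scb libraries (edgeR adjusted p = 1.54e-05). DNAJB1 shares 211 exonic bases with TECR on the opposite strand, whose log2 fold change was 0.00 (edgeR adjusted p = 0.976). DNAJA1 rose 1.29-fold and DNAJB6, which keeps polyglutamine proteins from aggregating, 1.28-fold (edgeR adjusted p = 4.91e-05 for DNAJA1 and 1.81e-05 for DNAJB6). DNAJA2, a close relative of DNAJA1, went the other way, with 93.8 and 94.9 CPM in the sh-IRF2BP2 libraries and 121 and 125 CPM in the sh-Scb libraries (log2 fold change -0.39, edgeR adjusted p = 1.40e-05). The count ratio of DNAJA1 to DNAJA2 was 3.06 and 2.83 in the sh-IRF2BP2 libraries and 1.80 and 1.71 in the sh-Scb libraries.

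HSP70 co-chaperones split between BAG1 and BAG2 on the higher side and BAG3 and STUB1, which were not called. BAG2, which inhibits the ubiquitin ligase encoded by STUB1, had 78.9 and 75.9 CPM in the sh-IRF2BP2 libraries and 45.0 and 47.5 CPM in the sh-Scb libraries (log2 fold change 0.74, standard error 0.06, edgeR adjusted p = 1.48e-06). BAG2 shares 2842 exonic bases with RAB23 on the opposite strand, which also rose (log2 fold change 0.43, edgeR adjusted p = 0.00763), and their reads cannot be told apart where strand is not marked. BAG1, a nucleotide exchange factor, rose 1.26-fold (edgeR adjusted p = 1.91e-04). BAG3, a heat-inducible gene whose product joins HSPB8 and HSP70 in selective autophagy, had 51.9 and 52.4 CPM in the sh-IRF2BP2 libraries and 57.0 and 54.8 CPM in the sh-Scb libraries (edgeR adjusted p = 0.207). STUB1 had 73.0 and 70.8 CPM in the sh-IRF2BP2 libraries and 73.1 and 76.5 CPM in the sh-Scb libraries (edgeR adjusted p = 0.417). STUB1 shares 983 exonic bases with JMJD8 on the opposite strand, which rose (log2 fold change 0.52, edgeR adjusted p = 3.74e-06).

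**Figure D3:**
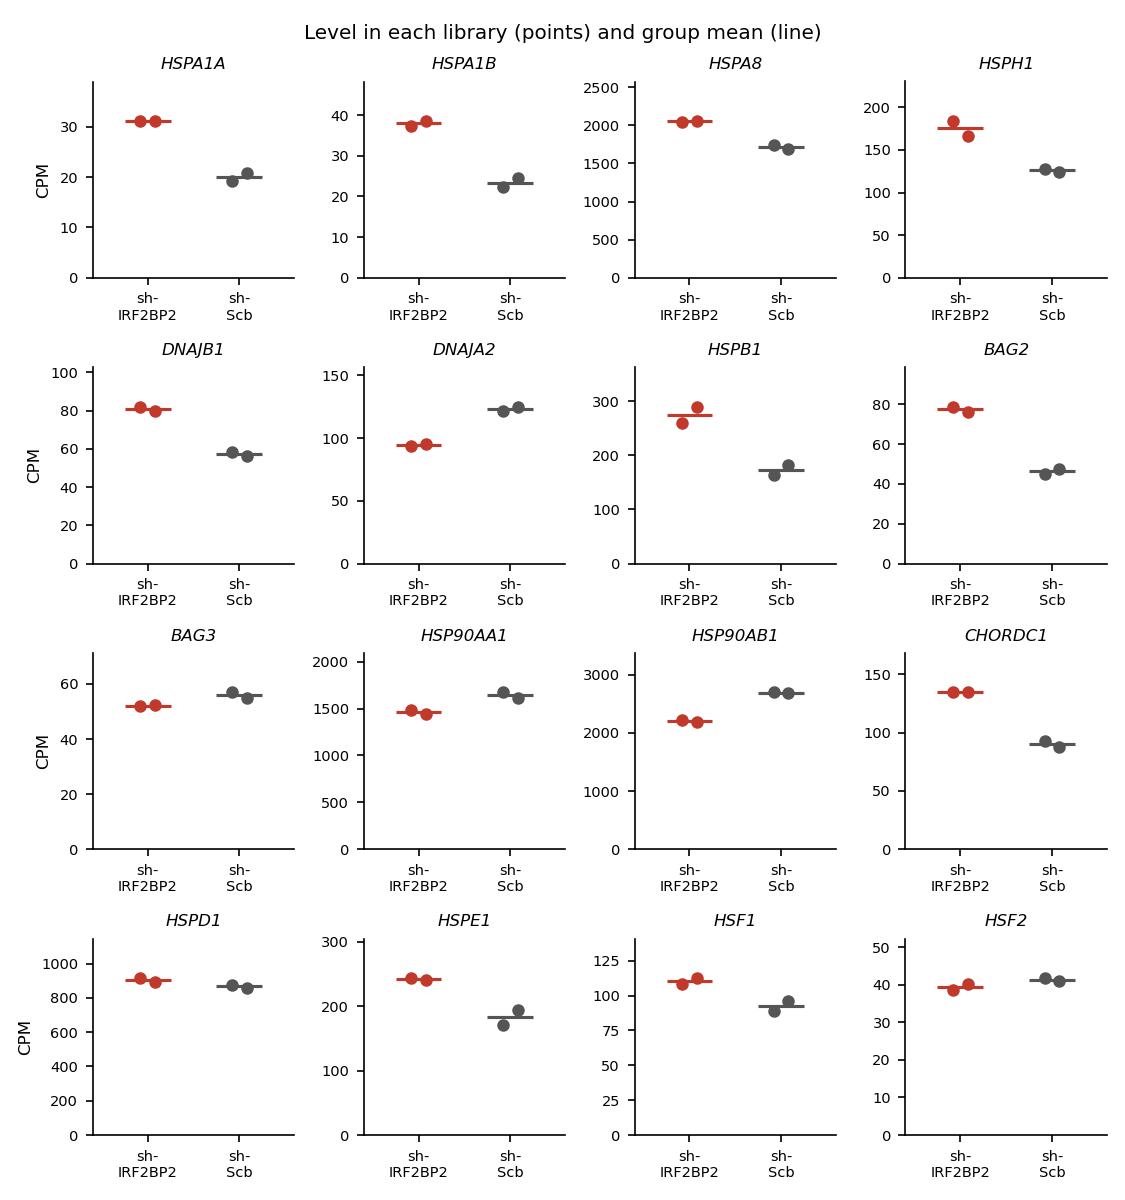
CPM in each library (points) with the group mean (line) for 16 chaperone and heat shock factor genes, sh-IRF2BP2 on the left and sh-Scb on the right of each panel; vertical axes start at 0. HSPA1A, HSPA1B, HSPH1, DNAJB1, HSPB1, BAG2 and CHORDC1 are higher with sh-IRF2BP2, DNAJA2 and both HSP90 genes are lower, and BAG3, HSPD1 and HSF2 differ little.

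Both cytosolic HSP90 genes were lower with sh-IRF2BP2, while their co-chaperones were mostly higher. HSP90AB1, the constitutive form (ENSG00000096384, chr6:44246166-44253888, plus strand), had 2215 and 2193 CPM in the sh-IRF2BP2 libraries and 2699 and 2681 CPM in the sh-Scb libraries (log2 fold change -0.29, standard error 0.03, edgeR adjusted p = 1.08e-05). HSP90AA1, the heat-inducible form (ENSG00000080824, chr14:102080738-102139699, minus strand), had 1482 and 1446 CPM in the sh-IRF2BP2 libraries and 1674 and 1616 CPM in the sh-Scb libraries (log2 fold change -0.17, standard error 0.03, edgeR adjusted p = 0.00173). The groups did not overlap in either gene. Per length HSP90AB1 was the most abundant of the 49 transcripts in both groups, with a mean of 2463 TPM with sh-IRF2BP2 and 2929 TPM with sh-Scb. The count ratio of HSPA8 to HSP90AB1 was 0.925 and 0.939 in the sh-IRF2BP2 libraries and 0.646 and 0.629 in the sh-Scb libraries. Within libraries, the balance of the leading HSP70 and HSP90 transcripts thus lay further towards HSP70 with sh-IRF2BP2.

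Among HSP90 co-chaperones the largest rise was in CHORDC1, a heat-inducible HSP90-binding protein gene. It had 135 and 135 CPM in the sh-IRF2BP2 libraries and 92.7 and 87.9 CPM in the sh-Scb libraries (log2 fold change 0.58, standard error 0.04, edgeR adjusted p = 8.06e-07). AHSA1, which speeds ATP use by HSP90, averaged 193 ± 0.445 CPM with sh-IRF2BP2 and 142 ± 3.28 CPM with sh-Scb (SD, n = 2; 1.36-fold, edgeR adjusted p = 4.13e-06). CDC37, which loads kinases onto HSP90, averaged 214 ± 12.2 CPM with sh-IRF2BP2 and 163 ± 3.48 CPM with sh-Scb (1.31-fold, edgeR adjusted p = 4.29e-05). STIP1, the bridge between HSP70 and HSP90, rose 1.16-fold (edgeR adjusted p = 9.74e-04). FKBP4, an immunophilin of steroid receptor complexes, rose 1.10-fold (edgeR adjusted p = 0.0157). FKBP4 no longer passed without sh-IRF2BP2 replicate 2 (0.128), with upper quartile scaling (0.0994) or with a filter at mean CPM of 10 (0.0573), as edgeR adjusted p. Its relative FKBP5, a glucocorticoid-induced gene, was not called (log2 fold change -0.07, edgeR adjusted p = 0.183). Upper quartile scaling called it lower (edgeR adjusted p = 0.0322), as did a filter at mean CPM of 10 (0.0297). PTGES3, the p23 co-chaperone, averaged 447 ± 16.0 CPM with sh-IRF2BP2 and 446 ± 17.6 CPM with sh-Scb, a difference well inside the spread of either pair (edgeR adjusted p = 0.957).

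Small heat shock proteins hold unfolding proteins in a state that HSP70 can rescue. HSPB1, the abundant one in these cells, had 260 and 290 CPM in the sh-IRF2BP2 libraries and 163 and 183 CPM in the sh-Scb libraries (log2 fold change 0.67, standard error 0.07, edgeR adjusted p = 3.40e-04). The HSPB1 groups did not overlap. HSPB8, the partner of BAG3, was low, with 4.25 and 3.43 CPM in the sh-IRF2BP2 libraries and 2.82 and 1.59 CPM in the sh-Scb libraries (log2 fold change 0.79, standard error 0.29, edgeR adjusted p = 0.0479). The HSPB8 call held in 3 of 10 alternatives, and the log2 fold change was 0.45 without sh-Scb replicate 2 (edgeR adjusted p = 0.246), 0.63 without sh-IRF2BP2 replicate 1 (0.222) and 0.94 without sh-IRF2BP2 replicate 2 (0.0621). Without sh-Scb replicate 1 it was 1.28 (edgeR adjusted p = 0.00333). CRYAB, the lens and muscle small heat shock protein, was close to absent, with 16 and 18 counts in the sh-IRF2BP2 libraries and 0 and 4 counts in the sh-Scb libraries (edgeR adjusted p = 0.0175). At such counts its fitted log2 fold change of 3.03 depends on the prior count. It was 7.14 without sh-Scb replicate 2 and 2.00 without sh-Scb replicate 1. Its call was lost without sh-Scb replicate 1 (0.127), sh-IRF2BP2 replicate 1 (0.0655) or sh-IRF2BP2 replicate 2 (0.0948), as edgeR adjusted p. CRYAB shares 626 exonic bases with HSPB2 on the opposite strand, which averaged 0.5 counts. HSPB11, named as a small heat shock protein but known as a subunit of the intraflagellar transport machinery of cilia, averaged 13.8 ± 0.167 CPM with sh-IRF2BP2 and 16.0 ± 0.801 CPM with sh-Scb (SD, n = 2; edgeR adjusted p = 0.129).

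The 8 TRiC subunits sit in fixed places in the same ring, and their transcripts did not move together. The median log2 fold change over the subunit genes was 0.00. CCT2 fell to 240 and 240 CPM in the sh-IRF2BP2 libraries, against 332 and 320 CPM in the sh-Scb libraries (log2 fold change -0.44, standard error 0.04, edgeR adjusted p = 4.49e-06). TCP1, the founding subunit, rose to 502 and 472 CPM in the sh-IRF2BP2 libraries, against 429 and 421 CPM in the sh-Scb libraries (log2 fold change 0.20, standard error 0.04, edgeR adjusted p = 0.00243). The groups did not overlap for either gene. The count ratio of CCT2 to TCP1 was 0.478 and 0.509 in the sh-IRF2BP2 libraries and 0.774 and 0.761 in the sh-Scb libraries. TCP1 shares 397 exonic bases with ACAT2 on the opposite strand, which rose (log2 fold change 0.31, edgeR adjusted p = 1.19e-04) and had a mean count of 2902 against 14754 for TCP1.

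The other 6 subunit genes did not pass the test, with log2 fold changes of 0.11 for CCT8, 0.06 for CCT5, 0.02 for CCT3, -0.02 for CCT7, -0.08 for CCT6A and -0.10 for CCT4, each with a standard error of 0.04. CCT8 (edgeR adjusted p = 0.0579) and CCT4 (edgeR adjusted p = 0.0556) lay just outside the threshold. CCT4 was called lower in 5 of 11 alternatives, CCT6A lower in 2 and CCT8 higher in 2. Summed over the 8 genes the level was 3349 and 3359 CPM in the sh-IRF2BP2 libraries and 3424 and 3361 CPM in the sh-Scb libraries. Per length the subunit genes lay between 185 TPM (CCT2) and 494 TPM (CCT3) with sh-IRF2BP2 and between 174 TPM (CCT8) and 474 or 475 TPM (CCT3 and CCT7) with sh-Scb.

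**Figure D4:**
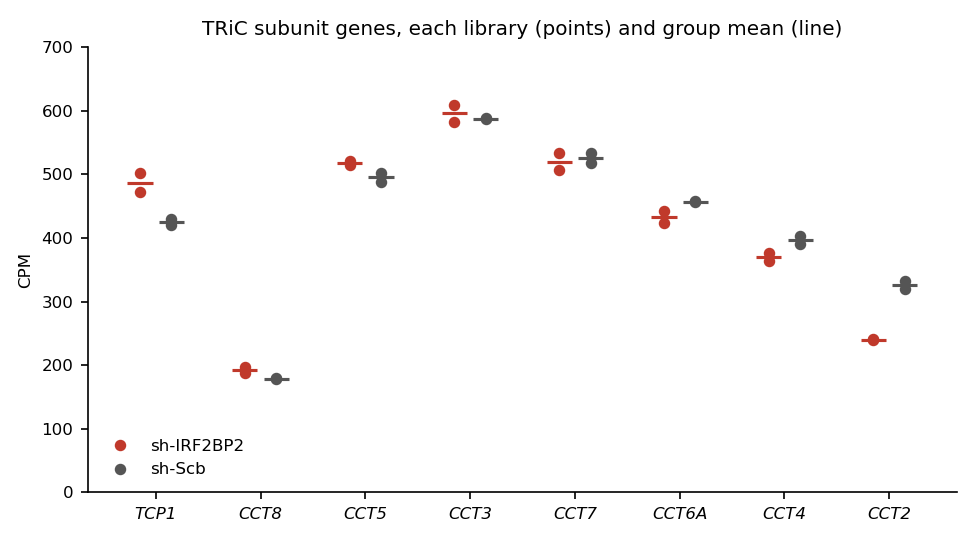
CPM of the 8 TRiC subunit genes in each library (points) with group means (lines), sh-IRF2BP2 on the left of each pair, ordered by fold change; the vertical axis starts at 0. TCP1 is higher and CCT2 lower with sh-IRF2BP2, and the other 6 pairs lie close together.

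Mitochondrial chaperones moved unevenly, even where they work as partners. HSPE1, the lid of the HSP60 chaperonin (ENSG00000115541, chr2:197499994-197503457, plus strand), had 244 and 241 CPM in the sh-IRF2BP2 libraries and 172 and 195 CPM in the sh-Scb libraries (log2 fold change 0.41, standard error 0.06, edgeR adjusted p = 3.38e-04). HSPD1, the HSP60 barrel itself (ENSG00000144381, chr2:197486581-197516737, minus strand), had 916 and 894 CPM in the sh-IRF2BP2 libraries and 878 and 858 CPM in the sh-Scb libraries and did not pass the test (log2 fold change 0.06, standard error 0.03, edgeR adjusted p = 0.192). The groups did not overlap in either gene. The count ratio of HSPE1 to HSPD1 was 0.266 and 0.270 in the sh-IRF2BP2 libraries and 0.195 and 0.227 in the sh-Scb libraries.

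At the RefSeq starts of the windows compared here, HSPE1 and HSPD1 lie head to head, although the annotated span of HSPD1 covers all of HSPE1. The RefSeq window of HSPE1 and a window of HSPD1 overlap by 204 bases, in which the letters are the same. The window of HSPE1 is shown because it overlaps a window of HSPD1, and it is written 5′ to 3′ on the plus strand, with an E-box (CACGTG, the letters bound by MYC family proteins) in capitals.
HSPE1, chr2:197500129-197500428, plus strand: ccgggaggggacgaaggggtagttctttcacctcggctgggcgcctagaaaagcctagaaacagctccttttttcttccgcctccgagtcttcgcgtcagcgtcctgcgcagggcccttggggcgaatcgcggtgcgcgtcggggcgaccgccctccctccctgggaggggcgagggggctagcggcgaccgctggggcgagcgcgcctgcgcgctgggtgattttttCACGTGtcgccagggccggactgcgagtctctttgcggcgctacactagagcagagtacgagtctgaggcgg
The same E-box lies in a window of HSPD1, read from the other strand. CACGTG, which reads the same on both strands, was present in 5 of the 41 chaperone genes with a window (12.2%), namely HSPD1, HSPE1, HSPA9, FKBP5 and HSF2, and in 8.77% of all genes with a window. HSPE1 and HSPA9 rose and the other 3 were not called. Over all 1498 tested genes with an E-box in a window, 30.2% were higher and 21.6% lower, where 25.1% and 23.8% of all tested genes with a window were. The annotated exons of HSPE1 and HSPD1 overlap by 281 bases on opposite strands, and HSPE1 shares a further 192 bases with the read-through gene HSPE1-MOB4, which averaged 66.5 counts against 6872 for HSPE1.

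HSPA9, the mitochondrial HSP70 that pulls proteins through the import channel, averaged 648 ± 19.5 CPM with sh-IRF2BP2 and 563 ± 2.32 CPM with sh-Scb (SD, n = 2; log2 fold change 0.20, edgeR adjusted p = 9.61e-04). GRPEL1, its nucleotide exchange factor, averaged 79.4 ± 1.47 CPM with sh-IRF2BP2 and 60.9 ± 3.78 CPM with sh-Scb (log2 fold change 0.38, edgeR adjusted p = 2.29e-04). DNAJA3, its J-domain partner, had 38.1 and 53.3 CPM in the sh-IRF2BP2 libraries and 39.6 and 42.1 CPM in the sh-Scb libraries. The sh-IRF2BP2 values lay on both sides of the sh-Scb values, and DNAJA3 was not called (edgeR adjusted p = 0.548), although without sh-IRF2BP2 replicate 1 its log2 fold change was 0.39 in place of 0.16 (edgeR adjusted p = 0.00249). Without sh-IRF2BP2 replicate 2 the sign of the DNAJA3 difference turned, to -0.10 (edgeR adjusted p = 0.477). TRAP1, the mitochondrial HSP90, averaged 239 ± 5.48 CPM with sh-IRF2BP2 and 263 ± 7.83 CPM with sh-Scb (log2 fold change -0.14, edgeR adjusted p = 0.0184). The TRAP1 call was lost without sh-Scb replicate 1 (0.0696), sh-IRF2BP2 replicate 1 (0.163) or sh-IRF2BP2 replicate 2 (0.0589) and with no filter on low counts (0.0671), as edgeR adjusted p. TRAP1 shares 1531 exonic bases with DNASE1 on the opposite strand, which was also lower (log2 fold change -0.21, edgeR adjusted p = 0.0395).

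Other genes of the chaperone system and non-chaperone heat shock targets, grouped in lists by pathway, were also called more often as higher than as lower. These lists were drawn up with earlier results of these data known, so they are no independent check on the direction of the chaperone genes above. Of 98 tested, 37 rose and 12 fell (37.8% and 12.2%, where 20.6% and 21.4% of all genes tested were called), and the median log2 fold change was 0.12. That background also holds genes of low count. With a filter at mean CPM of 10, 2973 of 10383 genes were called higher and 3161 lower. The count of rises was 24 without sh-IRF2BP2 replicate 2, and the count of falls was 7 without sh-IRF2BP2 replicate 2, without sh-Scb replicate 2 or with DESeq2. Among 30 further J-domain genes 11 rose and 5 fell, with a median of -0.01. DNAJC6, the neuronal auxilin that strips clathrin from vesicles, fell by 1.48 on the log2 scale (edgeR adjusted p = 6.18e-08). DNAJC1, a J-domain protein of the endoplasmic reticulum, rose by 0.98 and DNAJC2, a ribosome-bound partner of HSPA14, by 0.79 (edgeR adjusted p = 2.24e-06 for DNAJC1 and 3.71e-06 for DNAJC2). DNAJC12, which works with the aromatic amino acid hydroxylases, tyrosine hydroxylase among them, fell by 0.64 (edgeR adjusted p = 1.60e-05) and was chosen after its value was seen.

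The lists below are short, and over all genes tested 20.6% were higher and 21.4% lower. In the list with the prefoldin subunits these shares were 30.8% and 23.1%, and in the mitochondrial list 33.3% and 13.3%. Of 16 further HSP90 co-chaperone genes 6 rose and 1 fell (37.5% and 6.25%). NUDC, a dynein and HSP90 partner, was higher by 0.58 on the log2 scale (edgeR adjusted p = 1.08e-06). Of 5 further HSP70 co-chaperone genes 2 rose and 0 fell, and BAG6 rose by 0.41 (edgeR adjusted p = 4.16e-04). The list of prefoldin subunits, whose complex hands actin and tubulin to TRiC, tubulin cofactors and the further genes PDCD5, TXNDC9 and CCT6B had 4 higher and 3 lower of 13, with PDCD5 among the rises and CCT6B among the falls. PFDN2 rose by 0.59 (edgeR adjusted p = 5.09e-05) and TBCD, a tubulin cofactor gene, fell by 0.43 (edgeR adjusted p = 5.43e-06). In mitochondria, the protease genes AFG3L2 (0.71) and LONP1 (0.47) were the leading rises among 15 further chaperone and protease genes, of which 5 rose and 2 fell (edgeR adjusted p = 2.00e-06 for AFG3L2 and 9.45e-06 for LONP1). Small heat shock genes outside the list were low, and HSPB7 and HSPB6 rose at means of 3.47 and 2.31 CPM with sh-IRF2BP2, against 1.53 and 1.34 CPM with sh-Scb. HSPB6 lay just inside the threshold (edgeR adjusted p = 0.0496, against 0.00273 for HSPB7). Of the 11 heat shock target genes that encode no cytosolic or mitochondrial chaperone 6 rose and 0 fell. The rises included SERPINH1, the collagen chaperone of the endoplasmic reticulum (1.04), the autophagy receptor gene SQSTM1 (1.01) and JMJD6 (0.78), while UBB, RGS2, DEDD2, FAM53C and ZFAND2A did not pass the test.

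**Figure D5:**
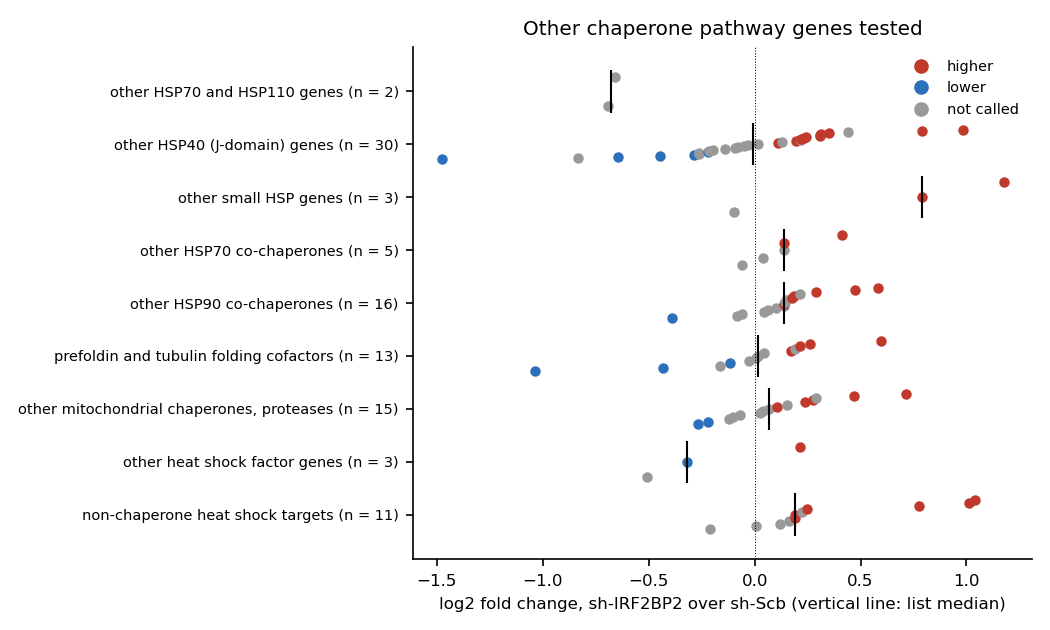
Log2 fold change of sh-IRF2BP2 over sh-Scb (horizontal axis) for the tested genes of 9 lists of other chaperone pathway and heat shock target genes (rows), coloured by the edgeR call, with each list's median as a vertical line. The medians run from -0.68 to 0.79, and single genes such as DNAJC6 (-1.48) and SERPINH1 (1.04) lie far from the medians of their lists.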

How the data were processed

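RNA of 4 SK-N-BE(2) libraries, made with a TruSeq RNA kit per the labels' protocols, was sequenced. Reads were aligned with HISAT2 2.2.0 to hg38, per the submitters' processing notes; the sources used here do not name the counter or the annotation. The authors deposited whole-number read counts per Ensembl gene. Columns headed NC were taken as the sh-Scb libraries. The strand setting of the counts is not given, and where strand is not marked, reads of overlapping genes cannot be told apart.

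From these counts, CPM used full column totals multiplied by the TMM factors, which ran from 0.9962 to 1.004. edgeR 4.0.16 (filterByExpr, TMM, robust quasi-likelihood test; R 4.3.3) tested 19093 genes, with Benjamini-Hochberg adjustment over all of them, a threshold of 0.05, and the standard error taken as the fold change over the root of F. The code was tested on simulated data. TPM used GENCODE 29 exon lengths, and gene coordinates are GRCh38. Promoters came from RefSeq. The common biological coefficient of variation was 9.52%. Replicates differed by more than counting noise (chi-square per degree of freedom 5.26 for sh-IRF2BP2 and 7.01 for sh-Scb), and with 2 against 2 libraries an exact permutation test cannot go below p = 0.333. The members and lists were chosen with earlier results of these data known. All 49 members are accounted for; those past a log2 fold change of 0.5, both heat shock factors and the leading HSP70, HSP90 and mitochondrial genes are given per library. From other lists up to 3 called genes with the smallest p are named, with exceptions stated. Alternatives were other scalings (RLE, upper quartile), DESeq2 1.42.0, limma 3.58.1 (voom), other filters, a replicate block and leaving out each library. Part of the neuroblastoma marker list is not reported here.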

Additional observations from a re-analysis of the deposited data

How the results depend on the processing

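Over the 11 alternatives, the chaperone genes called higher numbered 21 to 27 (25 in the report) and those called lower 5 to 9 (6 in the report). Of the 31 called genes, 26 were called in every alternative that gave a value. HSPA13, TRAP1, HSPB8, CRYAB and FKBP4 were not, and no log2 fold change of a called gene changed sign. With RLE size factors 2 TRiC subunit genes were called higher. Among other chaperone pathway and heat shock target genes, 7 were called lower with DESeq2, and leaving out a library gave 24 to 35 higher and 7 to 12 lower. The cause was not tested. The replicate block gave 27 chaperone genes higher and 7 lower, and 2 TRiC subunit genes higher. Same-numbered libraries deviated together (r = 0.312 over 10382 genes), but with 2 numbers the samples share only a number. Leaving out a library leaves a lone sample that is assumed to vary like the other group. HSPA12A, HSPB8 and CRYAB had no value with a mean of at least 10 CPM, and CRYAB had none with DESeq2. Depth limits CRYAB and HSPB8.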
